A study of Bos taurus with 6 samples.

Results

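The insulin-like growth factor (IGF) axis was followed in bovine cumulus cells, the somatic cells that surround the oocyte, over the first 6 h of in vitro maturation. It was represented by 10 genes: the ligands IGF1 and IGF2, the receptors IGF1R and IGF2R, the binding proteins IGFBP2, IGFBP3, IGFBP4, IGFBP5 and IGFBP6, and the protease PAPPA. Members were the array probes whose platform gene symbol was one of these names. They were 10 of the 15216 genes with a probe, read by 12 probes of the 21790 that carry a symbol and the 43794 on the array. IGF2 had 3 probes and the other genes had 1 each.

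RNA was hybridised to dual-colour microarrays that set cumulus cells after 6 h of maturation against cumulus cells taken before maturation (0 h). The complexes were aspirated from slaughterhouse ovaries of Holstein cows of unstated age. Those matured had at least 5 cumulus layers and were kept for the 6 h under 20% O2 and 5% CO2 at 38.5 °C in TCM-199 medium, to which 10% fetal calf serum, estradiol (1 µg/ml), gentamicin and pyruvate (0.33 mM) had been added. The 0 h cells were separated mechanically without culture, and how the 6 h cells were taken off the oocyte is not stated. Serum is a source of IGFs and their binding proteins, and no added gonadotropin or IGF is named. There were 3 biological replicates, each on 2 arrays with the dyes exchanged, and the sources used here do not say how many animals or complexes were pooled in each. All p-values therefore measure only the spread between these samples, part of which may be technical.

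IGF1 and IGF2 bind IGF1R, a receptor tyrosine kinase that signals through insulin receptor substrates to PI3-kinase and AKT, and through GRB2 to the MAP kinases. IGF2R has no kinase and carries IGF2 and mannose-6-phosphate-bearing enzymes to lysosomes. The binding proteins hold IGFs outside the cell and keep them from the receptor or release them slowly, and PAPPA cleaves IGFBP4 and IGFBP5 so that bound IGF is set free. In the cattle ovary, IGF2 is made chiefly by theca cells, and granulosa and cumulus cells carry IGF1R, through which IGF enhances the response to follicle-stimulating hormone.

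A spot counted as above background when its raw intensity was higher than the mean + 2 SD of the array's 153 negative controls in the same channel. A gene was tested if 1 of its probes met this in every array for at least 1 of the times. Of the 10 genes, 6 were tested (IGF1R, IGF2, IGF2R, IGFBP3, IGFBP4 and IGFBP5). IGF1, IGFBP2, IGFBP6 and PAPPA were too dim for the test, as were 2 of the IGF2 probes. No member spot was saturated or marked as ignored. Because probes differ in brightness for the same amount of RNA, levels of different genes are not compared.

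**Figure D1:**
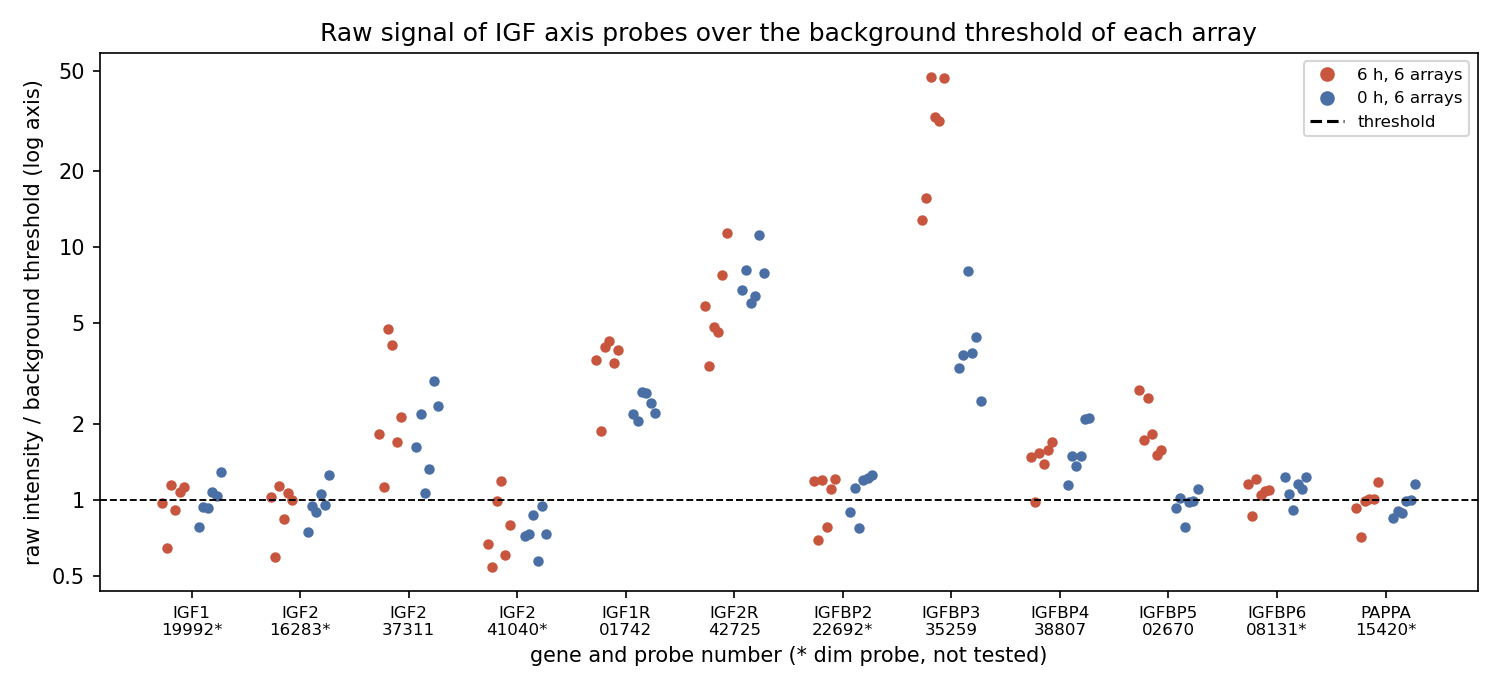
Raw intensity of the 12 IGF axis probes divided by the background threshold of the same array and channel, on a log axis, with the 6 arrays at 6 h left of the 6 arrays at 0 h for each probe. IGFBP3 stood 12.9 to 47.0 times above the threshold at 6 h, against 2.45 to 8.04 times at 0 h, whereas IGFBP5 lay at 1.5 to 2.72 times at 6 h and 0.777 to 1.11 times at 0 h.

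Of the 6 tested members, 3 rose at 6 h and 0 fell: IGFBP3 rose 7.86-fold, IGF1R 1.57-fold and IGFBP5 by a measured 2.61-fold, with its 0 h signal above background on 2 of 6 arrays (limma's moderated test, adjusted p under 0.05 over all genes). Across all 9217 genes tested, 17.4% rose and 18.2% fell, 35.6% in either direction. These 6 had passed the filter on dim probes, IGFBP5 through its 6 h signal alone, and with both times required IGFBP5 was not tested and 2 members rose. The median log2 ratio of 6 h over 0 h was 0.54 over the tested members and -0.02 over all tested genes. With 6 members, that median lies between the ratios of IGF2 and IGF1R, and IGF2 was high in replicate 2 alone. The 3 tested members that were not called had log2 ratios of 0.43 (IGF2), -0.13 (IGFBP4) and -0.36 (IGF2R), and their levels at 6 h and 0 h overlapped. Before adjustment, limma's p was 0.31 for IGFBP4 and 0.15 for IGF2R, the members with negative ratios. More RNA per cell and more cells of a type cannot be told apart in such samples.

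**Figure D2:**
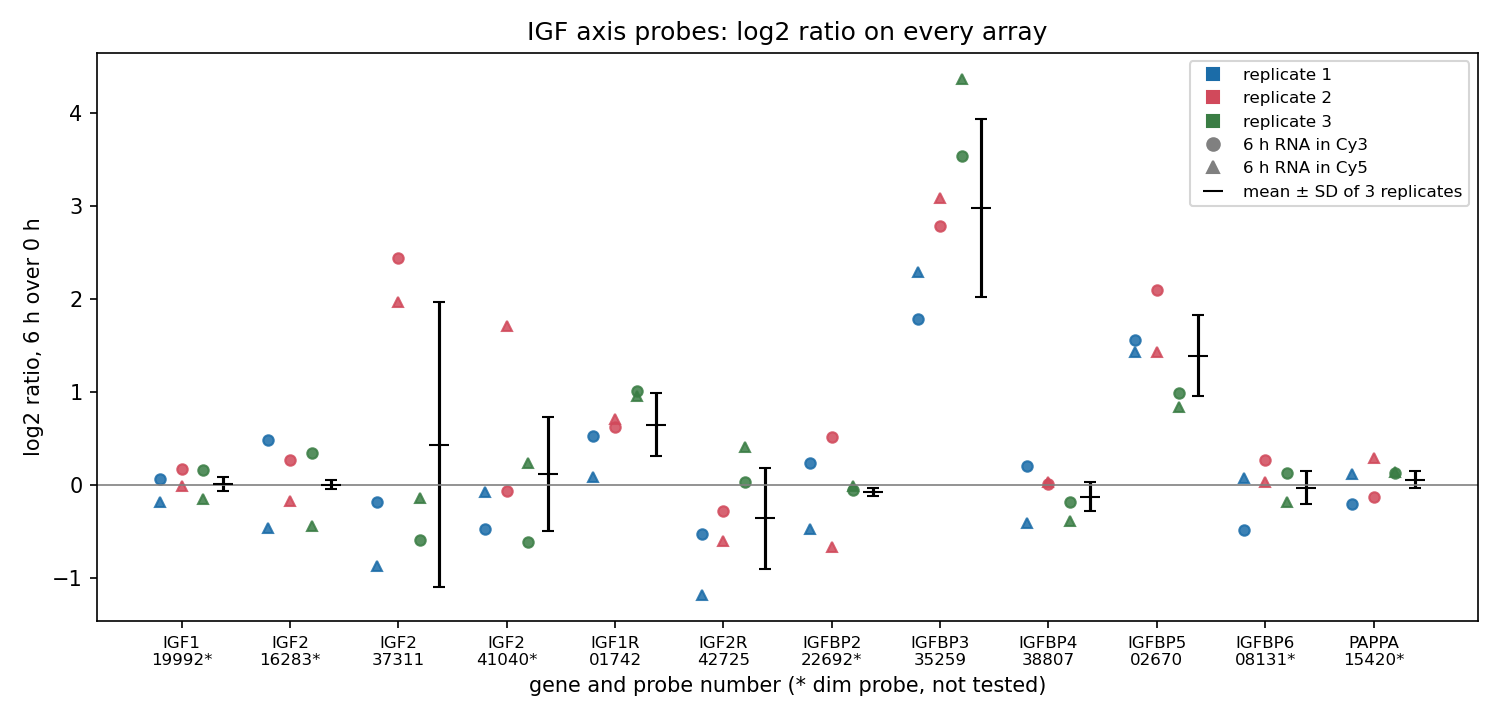
Log2 ratio of 6 h over 0 h for each of the 12 IGF axis probes on each of the 6 arrays, with replicates in colour, dye orientation as symbol, and the mean ± SD of 3 replicates in black. All 6 arrays lie above 0 for IGFBP3 (1.79 to 4.36), IGFBP5 (0.83 to 2.09) and IGF1R (0.09 to 1.01), and IGF2 probe EMBV3_37311 is high only on the arrays of replicate 2.

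IGFBP3, the most abundant IGF carrier of the circulation, was the member with the highest ratio. Its probe (EMBV3_35259) had levels of 11.5, 12.8 and 12.7 at 6 h in replicates 1, 2 and 3, against 9.45, 9.84 and 8.76 at 0 h, as normalized log2 intensity. The lowest replicate at 6 h was above the highest at 0 h, as for 20.1% of all tested genes, and 42.9% had no overlap in either direction. The log2 ratios were 2.04, 2.94 and 3.95 in replicates 1, 2 and 3, a mean of 2.97 ± 0.96 (SD, n = 3; limma adjusted p = 0.0036; 95% confidence interval 2.09 to 3.86). With the 6 h RNA in Cy5 the mean ratio was 3.25, and with it in Cy3 it was 2.70, so the rise appeared in both dye orientations. Among the 9217 tested genes, IGFBP3 stood at rank 46 from the highest ratio.

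IGFBP5, a binding protein that attaches to extracellular matrix and a substrate of PAPPA, also rose. Its probe (EMBV3_02670) had levels of 8.60, 8.34 and 7.69 at 6 h in replicates 1, 2 and 3, against 7.10, 6.58 and 6.78 at 0 h. All levels at 6 h were above all levels at 0 h. It was above background on 6 of 6 arrays at 6 h but on 2 of 6 at 0 h. The log2 ratios of 1.49, 1.76 and 0.91 gave a mean of 1.39 ± 0.43 (SD, n = 3; limma adjusted p = 0.0046; 95% confidence interval 0.93 to 1.85). At 0 h the signal lay close to the threshold, and the ratio was 1.03 with no background correction and 1.20 in the authors' normalized matrix. IGFBP5 stood at rank 321 of 9217.

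IGFBP4, the binding protein cleaved by PAPPA in preovulatory follicles, did not pass the test. Its levels were 7.52, 7.66 and 7.76 at 6 h in replicates 1, 2 and 3, against 7.63, 7.65 and 8.05 at 0 h, and its probe (EMBV3_38807) was above background on 5 of 6 arrays at 6 h and on 6 of 6 at 0 h. The mean log2 ratio was -0.13 ± 0.15 (SD, n = 3; limma adjusted p = 0.45), with a 95% confidence interval of -0.42 to 0.16. That interval leaves out a ratio as large as that measured for IGFBP3. The raw signal of the IGFBP4 probe was 0.98 to 1.69 times the threshold at 6 h and 1.14 to 2.11 times at 0 h. How far a change in RNA is understated at such signals was not tested.

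IGFBP2, an IGF carrier of many tissues, and IGFBP6, a carrier that prefers IGF2, stayed near background and were not tested. IGFBP2 (EMBV3_22692) was above background on 4 of 6 arrays at each time, with levels of 6.91, 6.85 and 7.11 at 6 h, against 7.03, 6.92 and 7.15 at 0 h in replicates 1, 2 and 3. In replicates 1 and 2 its ratio changed sign with the dyes, at 0.23 and 0.52 with the 6 h RNA in Cy3 and at -0.48 and -0.67 with it in Cy5. IGFBP6 (EMBV3_08131) was above background on 5 of 6 arrays at each time, with levels of 7.12, 7.17 and 6.99 at 6 h, against 7.33, 7.02 and 7.03 at 0 h. Neither ratio was tested, and a small change or a fall could not be measured at such signals.

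The log2 ratio of IGFBP3 exceeded that of IGFBP4 in each of the 3 replicates, by 2.15, 2.92 and 4.24, and on 6 of 6 arrays. The exact sign-flip permutation test over replicates gave p = 0.25, the smallest that 3 replicates allow. The IGFBP4 signal lay near the background threshold, at 0.98 to 1.69 times it at 6 h and 1.14 to 2.11 times at 0 h. How far this affects the size of these differences was not tested. The ratio of IGFBP5 was not set against those of the other binding proteins, because its 0 h signal was above background on only 2 of 6 arrays.

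IGF1R, the signalling receptor, rose modestly. Its probe (EMBV3_01742) had levels of 8.87, 9.33 and 9.15 at 6 h in replicates 1, 2 and 3, against 8.57, 8.67 and 8.17 at 0 h, and the groups did not overlap. The log2 ratios were 0.30, 0.66 and 0.98, a mean of 0.65 ± 0.34 (SD, n = 3; limma adjusted p = 0.028; 95% confidence interval 0.25 to 1.04). All 6 arrays were higher at 6 h. The call was lost in 3 alternatives: without replicate 2 the ratio was 0.64 (adjusted p = 0.127), without replicate 3 it was 0.48 (adjusted p = 0.105), and from the Cy5-labelled 6 h RNA alone it was 0.58 (adjusted p = 0.071).

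IGF2R, the clearance receptor, did not pass the test. Its probe (EMBV3_42725) had levels of 9.77, 9.58 and 10.6 at 6 h in replicates 1, 2 and 3, against 10.6, 10.0 and 10.4 at 0 h. Log2 ratios of -0.86 and -0.44 in replicates 1 and 2 stood against 0.22 in replicate 3, and both arrays of each replicate had the same sign. The mean was -0.36 ± 0.54 (SD, n = 3; limma adjusted p = 0.26; 95% confidence interval -0.90 to 0.18). The log2 ratio of IGF1R exceeded that of IGF2R by 1.16, 1.10 and 0.76 in replicates 1, 2 and 3. The difference between these ratios was positive on 6 of 6 arrays (exact sign-flip permutation test, p = 0.25, the smallest possible).

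**Figure D3:**
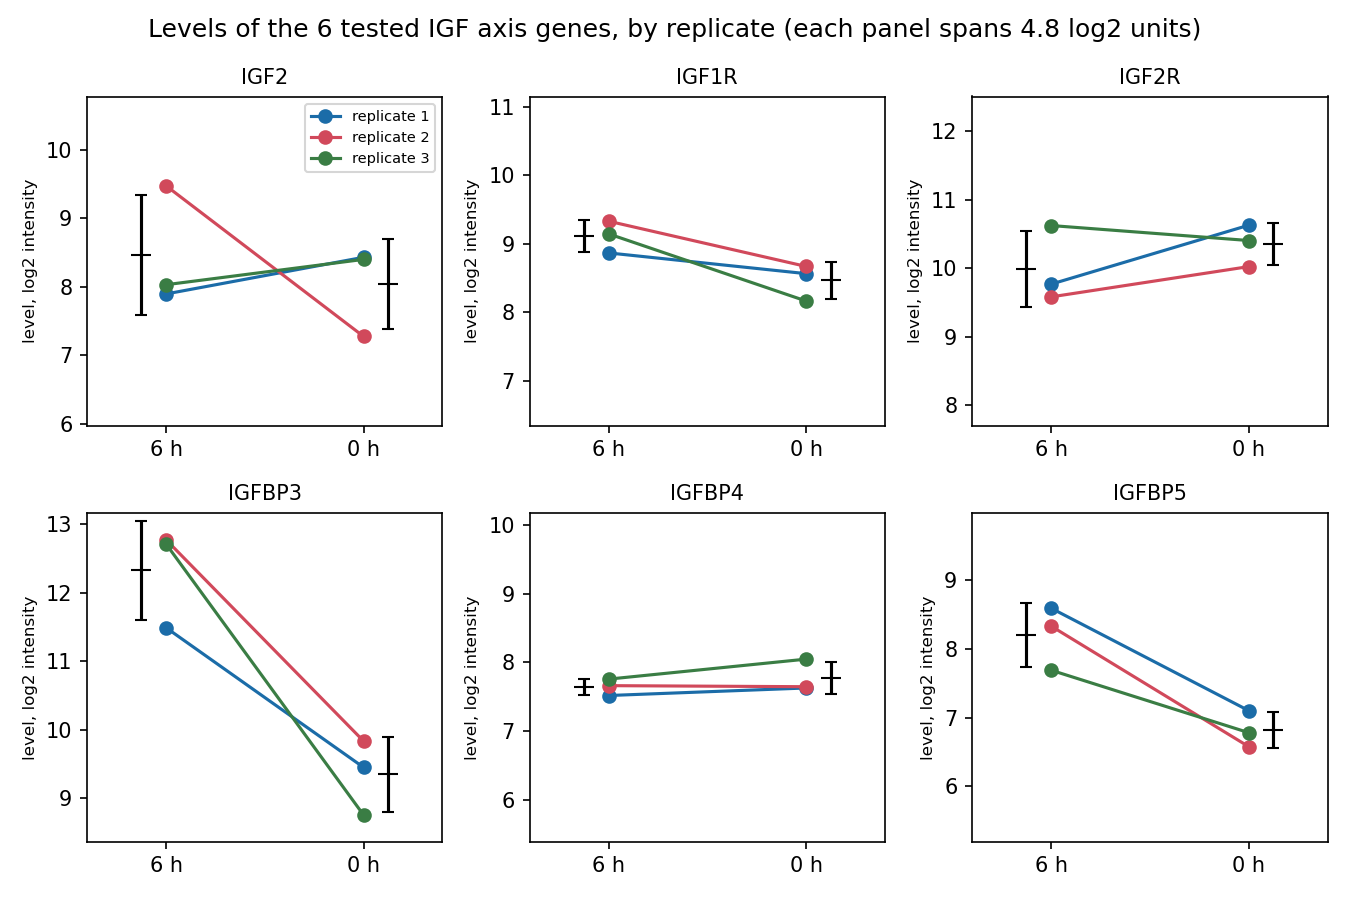
Normalized log2 intensity of the 6 tested IGF axis genes at 6 h (left in each panel) and 0 h (right), with a line for each replicate and the mean ± SD in black. The 3 replicates separate fully between the times for IGFBP3, IGFBP5 and IGF1R, and the IGF2 line of replicate 2 runs opposite to the lines of the other replicates.

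IGF2, the ligand made by theca cells, had a spread between replicates larger than its mean ratio. At the tested probe (EMBV3_37311) its levels were 7.90, 9.47 and 8.03 at 6 h in replicates 1, 2 and 3, against 8.43, 7.28 and 8.40 at 0 h. Replicate 2 had both the highest level at 6 h and the lowest at 0 h. On its arrays the 0 h signal was only 1.06 and 1.33 times the background threshold, and the effect of this on its ratio was not tested. The log2 ratios were -0.53, 2.20 and -0.37, and each replicate had the same sign on both of its arrays, with 2.43 and 1.96 in replicate 2. The mean of 0.43 ± 1.53 (SD, n = 3) did not pass limma's test (adjusted p = 0.60; 95% confidence interval -0.94 to 1.80), and without replicate 2 the ratio was -0.45 (adjusted p = 0.135).

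The other IGF2 probes gave no usable ratio. EMBV3_16283 was above background on 4 of 6 arrays at 6 h and on 2 of 6 at 0 h, and its ratio followed the dyes: 0.49, 0.26 and 0.34 with the 6 h RNA in Cy3 against -0.47, -0.17 and -0.44 with it in Cy5. EMBV3_41040 was above background on 1 of 6 arrays at 6 h and on 0 of 6 at 0 h. That array was the one of replicate 2 with the 6 h RNA in Cy5, with a ratio of 1.70, whereas the other array of replicate 2 gave -0.07. None of the 3 probes has a sequence in the sources used here, so which IGF2 transcripts each reads was not tested.

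IGF1 was not detectable at a level that allows a test. Its probe (EMBV3_19992) was above background on 3 of 6 arrays at each time, with levels of 6.60, 6.997 and 7.03 at 6 h in replicates 1, 2 and 3, against 6.66, 6.92 and 7.03 at 0 h. Its ratio was 0.06, 0.17 and 0.15 with the 6 h RNA in Cy3 and -0.18, -0.01 and -0.15 with it in Cy5, so its sign followed the dye on every array. The mean log2 ratio was 0.01 ± 0.07 (SD, n = 3), at a signal that cannot show whether the transcript was present.

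PAPPA, the protease, was equally dim. Its probe (EMBV3_15420) was above background on 3 of 6 arrays at 6 h and on 1 of 6 at 0 h, with levels of 6.67, 6.88 and 7.01 at 6 h, against 6.72, 6.81 and 6.88 at 0 h. The ratios of -0.05, 0.08 and 0.14 in replicates 1, 2 and 3 were not tested. The related protease PAPPA2 had a log2 ratio of -0.10 ± 0.03 (SD, n = 3; limma adjusted p = 0.50) at a probe above background on 4 of 6 arrays at 6 h and on 6 of 6 at 0 h.

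Of 22 further genes listed as IGF-binding or IGF-complex genes, proteases or protease regulators, 19 had a probe and 9 were tested. Of these 9, 3 rose and 0 fell, beside 17.4% and 18.2% of all tested genes. The median log2 ratio of the 9 was 0.16, beside -0.02 for all genes. The genes that rose were STC1, ADAMTS1 and PLAT. STC1, stanniocalcin-1, inhibits PAPPA and had 3.95, 4.82 and 4.01 in replicates 1, 2 and 3 (4.26 ± 0.49, SD, n = 3; limma adjusted p = 0.00073). PLAT, the tissue plasminogen activator, had 3.38, 3.06 and 2.71 (3.05 ± 0.33; adjusted p = 0.00077), and the matrix protease ADAMTS1 had 4.22 ± 0.16 (adjusted p = 0.00028). HTRA1, a protease that cleaves IGFBP5 and had the next smallest p, had 0.85, 0.53 and 0.07 (adjusted p = 0.081). IGFBP7, a low-affinity binding protein, had 0.16 ± 0.30 (adjusted p = 0.46). The other stanniocalcin, STC2, was above background on 2 of 6 arrays at 6 h and on 1 of 6 at 0 h. IGFBP1, a binding protein of liver and decidua, was above background on 1 and 0 arrays, and IGFALS, the acid-labile subunit of the circulating complex, on 0 and 0. These 3 genes were not tested.

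The IGF2 mRNA-binding proteins had 3 genes with probes and 1 tested, IGF2BP3. Its log2 ratio was 1.26 in replicate 1, 1.15 in replicate 2 and -0.88 in replicate 3 (limma adjusted p = 0.42). Its probe (EMBV3_11610) was above background on 6 of 6 arrays at 6 h and on 4 of 6 at 0 h. In replicates 1 and 2 its 0 h signal was 0.94 to 1.05 times the threshold. Without replicate 3 the ratio was 1.20 (limma adjusted p = 0.0069), which rests on that dim 0 h signal. The tested oocyte markers had median ratios of 2.04, 0.88 and -1.19 in replicates 1, 2 and 3, and their part in the IGF2BP3 values was not tested. The remaining IGF2BP3 probes gave -0.20, -0.07 and 0.04.

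**Figure D4:**
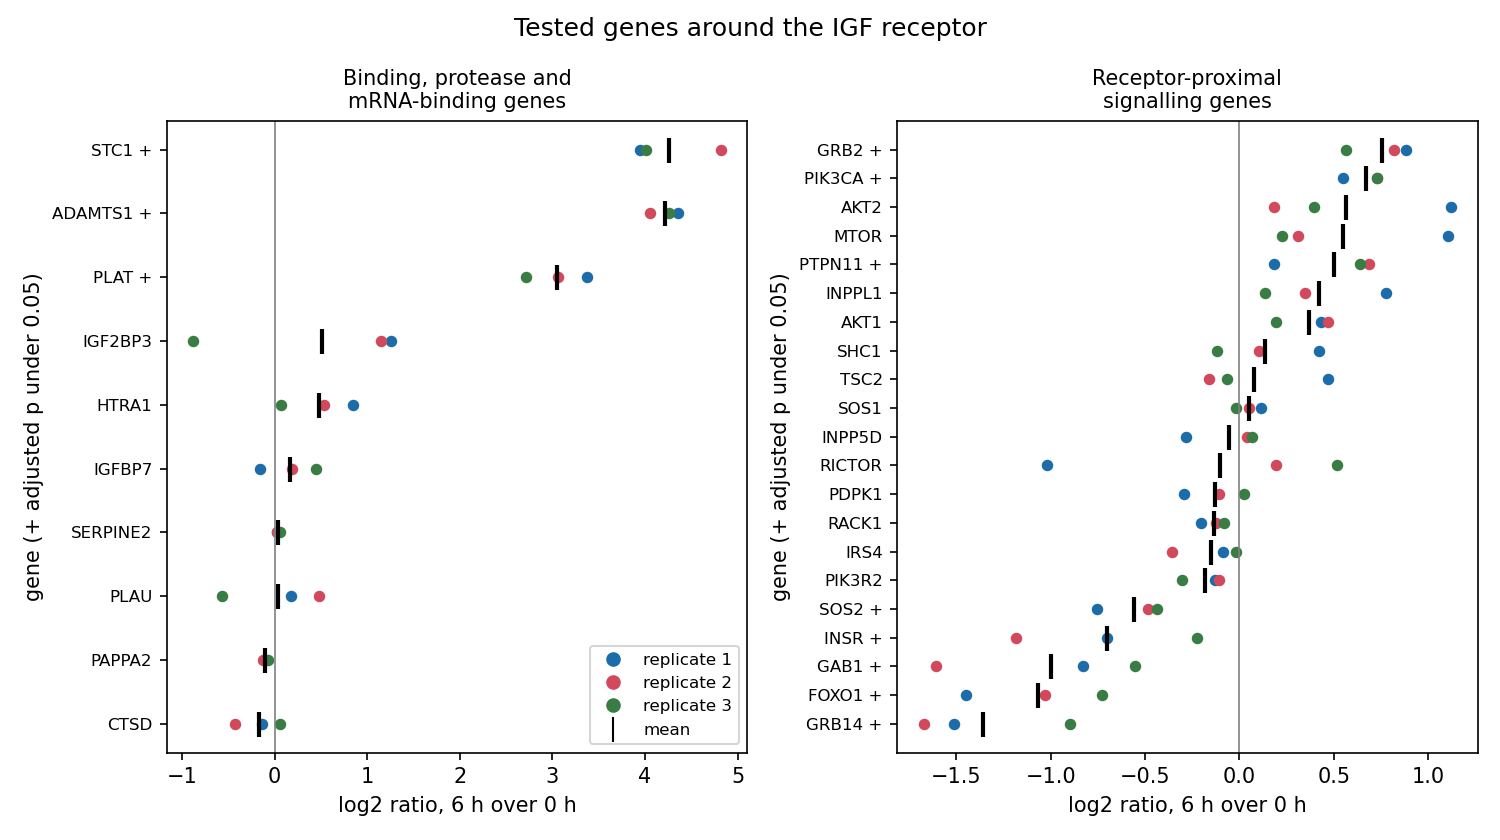
Log2 ratio of 6 h over 0 h in each replicate (points) and their mean (bar). The left panel holds the tested genes listed as IGF-binding genes, proteases, protease regulators or IGF2 mRNA-binding proteins. The right panel holds tested genes of receptor-proximal signalling. STC1, ADAMTS1 and PLAT lie between 2.71 and 4.82, and GRB14, FOXO1, GAB1, INSR and SOS2 are below 0 in every replicate.

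Of 33 genes that carry or restrain the signal from the receptor, 29 had a probe and 21 were tested, of which 3 rose, 5 fell and 13 did not pass the test, with a median log2 ratio of -0.06. The share called was near the 35.6% of all tested genes. GRB14, an adaptor that restrains insulin and IGF receptors, fell, with -1.51, -1.67 and -0.90 in replicates 1, 2 and 3 (-1.36 ± 0.41, SD, n = 3; limma adjusted p = 0.0044), and a further GRB14 probe gave -0.61. FOXO1, a transcription factor that AKT excludes from the nucleus, had -1.45, -1.03 and -0.73 (-1.07 ± 0.36; adjusted p = 0.0072). GRB2, the adaptor to the MAP kinases, rose by 0.76 ± 0.17 on the log2 scale (adjusted p = 0.0076), though its dimmer probe gave -0.01. PIK3CA, a catalytic subunit of PI3-kinase, rose by 0.67 ± 0.10 on the log2 scale (adjusted p = 0.0085). The other genes called, named after their values were seen, were INSR, GAB1, SOS2 and PTPN11. The docking protein GAB1 had -0.997 ± 0.55 and the exchange factor SOS2 -0.56 ± 0.17, whereas the phosphatase PTPN11 had 0.50 ± 0.28, a call lost in 7 of 15 alternatives (adjusted p = 0.053 in the authors' normalized matrix and 0.214 without replicate 2). Without replicate 2, 0 of these 21 genes rose and 2 fell.

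INSR, the insulin receptor and closest relative of IGF1R, had a ratio of the opposite sign. Its log2 ratios were -0.70, -1.18 and -0.23 in replicates 1, 2 and 3 (-0.70 ± 0.48, SD, n = 3; limma adjusted p = 0.042). The log2 ratio of IGF1R exceeded that of INSR by 1.00, 1.84 and 1.20 in these replicates. That difference was positive on 6 of 6 arrays (exact sign-flip permutation test, p = 0.25, the smallest possible). The INSR call was lost in 5 of 15 alternatives, with an adjusted p of 0.051 without replicate 1 and 0.179 without replicate 2. IRS1, the substrate of both receptors, was above background on 1 of 6 arrays at 6 h and on 0 of 6 at 0 h.

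Of 12 granulosa genes listed for the response to follicle-stimulating hormone and estradiol, 10 were tested, with a median log2 ratio of -0.19. At 6 h 0 were higher and 3 lower, beside 17.4% and 18.2% of all tested genes. Whether IGF acts on these genes here was not tested. The genes that fell were the follicle-stimulating hormone receptor FSHR (-1.53 ± 0.29, SD, n = 3; limma adjusted p = 0.0022), the aromatase CYP19A1 (-1.48 ± 0.44; adjusted p = 0.0041) and the activin antagonist FST (-1.34 ± 0.23; adjusted p = 0.0023). CYP11A1, which starts steroid synthesis, had 0.35 ± 0.12 (adjusted p = 0.061).

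The genes whose ratios lay closest to those of the called members over the 6 arrays, by Euclidean distance, were named for each. For IGFBP3 they were NPY1R, a neuropeptide Y receptor, at a distance of 0.82 (mean log2 ratio 2.85), VMP1, a membrane protein of autophagy, at 0.99 (2.95), and LOC511937 at 1.04 (2.67). For IGFBP5 they were DENND3 at 0.42, the cystathionine-cleaving enzyme CTH at 0.44 and the aminopeptidase LAP3 at 0.49. For IGF1R they were MPZL1 at 0.25, the interleukin-22 receptor subunit IL22RA1 at 0.32 and VGLL4, a cofactor of TEAD factors, at 0.34.

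The markers of the labelled cell type were present: 11 of 13 granulosa and cumulus genes had a probe above background on all arrays at 6 h and 12 of 13 at 0 h. FOXL2, a granulosa transcription factor, passed on 2 of the arrays for 6 h and 4 of those for 0 h. Of the 12 tested, 6 fell (limma), beside 18.2% of all tested genes. AMHR2, which was among them, was above background on 2 of 6 arrays at 6 h. The summed intensity of the whole list ran over the 3 replicates from 97990 to 100500 at 6 h, against 128100 to 132500 at 0 h. These sums are limited by INHA and INHBA, with mean levels of 15.1 to 15.2 and saturated spots on 2 and 4 arrays. FST, another bright gene, had a mean level of 13.5 at 6 h against 14.8 at 0 h, so the fall in the sums need not be shared by the whole list. FST, FSHR and CYP19A1, given above, are among the 6 that fell. Oocyte markers had 14 genes with a probe and 10 tested, and their sums ran from 3241 to 6921 at 6 h, against 1830 to 15230 at 0 h. Of 14 theca and stroma markers, 8 were tested and 4 rose, beside 17.4% of all tested genes. They were PDGFRA, LUM, TCF21 and DCN, with 1.93, 1.23, 1.07 and 0.68. DCN was tested through its 6 h signal alone, with 2 of 6 arrays above background at 0 h. The DCN ratio depended on the dyes. In replicates 1 and 2 it was -0.20 and 0.37 with the 6 h RNA in Cy3, against 1.27 and 1.01 with it in Cy5. The call was lost in 2 of 14 alternatives for DCN (Cy3-labelled 6 h RNA alone, and without replicate 2) and in 1 of 15 for TCF21. The list's summed intensity ran from 25740 to 33020 at 6 h, against 16710 to 26300 at 0 h. Median ratios of the tested theca and stroma markers were 0.68, 0.41 and 0.94 in replicates 1, 2 and 3. The ratios of IGFBP3 were 2.04, 2.94 and 3.95 and those of IGF2 -0.53, 2.20 and -0.37. The theca enzyme CYP17A1 passed the background threshold on 5 arrays for 6 h and on 3 for 0 h, and the theca hormone INSL3 on 4 and 5. Endothelial markers had 0 of 5 genes above background on all arrays at either time. TEK and 1 VWF probe passed on 5 arrays for 6 h and 5 for 0 h, and CDH5 and KDR on 5 and 4. PECAM1 and the other VWF probe passed on 0 and 0. Of 4 tested blood and immune markers CD68 rose (1.33), whereas CD3E, HBA and PTPRC had 0.14, -0.03 and -0.03. The part of these cells in the IGFBP3, IGFBP5 and IGF2 values was not tested.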

How the data were processed

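Per the file headers, the authors deposited linear spot intensity without background subtraction, the local background and a flag for spots to ignore. The authors' deposited matrix holds normalized log2 values, found from the scanner files to be Cy5 over Cy3. How the authors normalized these log2 values is not stated in the labels. They matched the ratios computed here at r = 0.991 to 0.995 across the probes of each array. RNA was amplified with T7 polymerase before labelling, per the labels' protocols.

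Spot means were corrected with normexp (offset 50, local median background), normalized by loess within arrays with control and ignored spots at weight 0, turned to 6 h over 0 h by the labelled dyes, and averaged over the 2 arrays of a replicate. Every array pairs both times of 1 replicate. Levels are log2 intensities after Aquantile scaling. The brightest tested probe stood for its gene. Ratios were tested against 0 with limma 3.58.1 (R 4.3.3), two-sided, Benjamini-Hochberg adjusted over 9217 genes at a threshold of 0.05. The share of probes over the background threshold ran from 41.3% to 80.0% in the 6 h channels and from 51.3% to 84.3% in the 0 h channels, and the number of arrays limits the precision.

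The members, lists and tests were chosen with earlier results of these data known. Named were all members, from each list the 4 genes of lowest p, and the 3 nearest genes of each called member. IGFBP7, PAPPA2, INSR, GAB1, SOS2, PTPN11 and the markers were named after their values were seen. The 15 alternatives covered background, normalization, the authors' tables, filter, probe summary, dye, block and each replicate left out.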

Additional observations from a re-analysis of the deposited data

Results flagged for a closer look

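The ratios of each of the 12 member probes on the 6 arrays were examined for an array far from the others by Dixon's test, which flags about 1 in 20 groups by chance, and 1 probe was picked out. IGF2 probe EMBV3_41040 had a log2 ratio of 1.70 on the array of replicate 2 with the 6 h RNA in Cy5, while the other 5 arrays lay between -0.62 and 0.23. The gap was 0.635 of the whole range, above the test's 95% critical value for 6 arrays. This probe was above background at 6 h on that array alone, and the brighter IGF2 probe EMBV3_37311 had 1.96 there. On the other array of replicate 2 the 2 probes differed, with 2.43 for EMBV3_37311 and -0.07 for EMBV3_41040.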

How the results depend on the processing

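Over 15 alternatives, of which 2 used authors' tables with identical values, IGFBP3 and IGFBP5 passed the test wherever they were tested, with log2 ratios of 2.49 to 3.44 and 1.03 to 1.62. IGFBP5 and IGFBP4 were not tested when probes had to be above background at both times. IGF1R lost its call in 3 alternatives, given above. Of 88 recomputed values of the tested members, 83 kept their direction and side of the threshold. The sign turned for IGF2 without replicate 2 (leaving out 1 replicate gave -0.45 to 0.91) and for IGFBP4 from the Cy3-labelled 6 h RNA alone (0.0042). No member fell in any alternative, and 2 to 3 rose. The 4 untested members stayed between -0.39 and 0.23. With 6 arrays, a dye term and the replicate number as a random block, 3677 genes were called, and 7 signalling genes rose in place of 3. With every probe as its own feature, 6948 probes were called, 3672 higher and 3276 lower. Leaving out 1 replicate gave 1346 to 3367 called genes, 706 to 1606 higher and 640 to 1761 lower, the lowest without replicate 2. Of 491 values of 33 other named genes, called or not, 454 kept their direction and side of the threshold. A call was lost in 30 and gained in 7, and 0 turned sign. Dim signal limits IGF1, IGFBP2, IGFBP6 and PAPPA, for which a change could not be measured.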
